A study of Mus musculus with 98 samples.

Results

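Daily rhythms of mRNA were compared between the liver and the skeletal muscle of the Mu mice, gene by gene, to find which genes kept the same time of day in both tissues, which ran in opposite phase and which were rhythmic in 1 tissue. The comparison used 24 of the 98 libraries of the series, 12 of Mu liver and 12 of Mu muscle, with 2 libraries of each tissue at zeitgeber times (ZT) 2, 6, 10, 14, 18 and 22. Its members are the 10904 genes with a mean of at least 1 CPM (counts scaled to library size, per M counts) in both tissues, out of 19347 mouse genes listed for both. All mice were FRGN males 10 weeks old, which lack Fah, Rag2 and Il2rg on a non-obese diabetic background, and their livers had been repopulated with transplanted murine hepatocytes, the control treatment of the series. Every animal was therefore immunodeficient, was cycled on the protective drug nitisinone and on antibiotics in dextrose water, and ate a high energy diet. Only the hepatocytes of these livers were transplanted, so that the muscle, and the liver cells that are not hepatocytes, belong to the host. The lighting and feeding schedule is not given in the sources used here. Nothing in the labels says whether equal numbers in liver and muscle mark the same mouse. The labels also do not say whether the 2 libraries of a tissue and time come from separate animals. The p-values therefore measure only the spread between these samples, which may be technical.

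Mammalian cells carry a circadian clock built as a transcriptional feedback loop. CLOCK or NPAS2 with ARNTL (BMAL1) activates genes with E-box elements, among them the Per and Cry repressors, which later block their own activators. The REV-ERB receptors (Nr1d1, Nr1d2) repress, and the ROR receptors activate, Arntl and other genes through shared elements, and Dbp, Tef and Hlf activate, and Nfil3 represses, genes with D-box elements. Liver and muscle clocks are set by the central pacemaker and by feeding, and each tissue adds rhythms of its own around this common core.

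Total counts were 97.1 to 118.3 M per liver library and 50.9 to 79.6 M per muscle library. Markers matched the tissue labels: the summed level of 7 hepatocyte markers had a median of 88857 CPM in liver and 2.16 CPM in muscle, and that of 7 muscle fibre markers a median of 121997 CPM in muscle and 0.661 CPM in liver. Fah, supplied by the transplanted hepatocytes, lay between 442 and 687 CPM in liver, and between 0.226 and 4.16 CPM in muscle. Gene totals do not show which exons a deletion removed: Rag2 lay between 0.0939 and 0.385 CPM in liver and between 0.738 and 1.29 CPM in muscle, and Il2rg between 0.887 and 3.06 CPM over both tissues. Other cells were unevenly present in the muscle libraries: the sum of 7 fat cell markers was 134 to 2423 CPM, with the highest value in ZT2 replicate 2 and the next, 895 CPM, in ZT6 replicate 1, and the sum of 6 slow fibre markers was 60.2 to 1755 CPM. Hepatocyte markers reached 172 CPM in muscle ZT14 replicate 1 and 73.7 CPM in ZT2 replicate 2. In bulk tissue, fewer cells of a type and less RNA per cell cannot be told apart, and neither can the tissue and the count table that holds it. The phase of each library's own clock genes was checked against the other libraries of its tissue, and the best matching time lay within 1.8 h of the label in liver and 1.5 h in muscle.

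Rhythms were more frequent in liver than in muscle, and most of the genes called in liver were not called in muscle. A 24 h cosine was fitted to each gene in each tissue, and rhythm was called at an adjusted p (edgeR quasi-likelihood F test, Benjamini-Hochberg) under 0.05. In liver 3607 of the 10904 genes were rhythmic (33.1%), and in muscle 1563 (14.3%). Both tests passed for 676 genes (6.2%), which made up 18.7% of the genes rhythmic in liver and 43.3% of those rhythmic in muscle. A different rhythm between the tissues, tested as the interaction of tissue with the cosine and sine terms, was found for 2043 genes (18.7%). At an unadjusted p under 0.05, 49.5% of the genes passed in liver and 37.0% in muscle. Among genes expressed in 1 tissue only, 416 of 1312 were rhythmic in liver (31.7%) and 212 of 1354 in muscle (15.7%).

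The 676 genes were divided by the difference between their fitted peaks, taken as liver minus muscle. For 356 genes (3.26% of the 10904) the peaks lay within 3 h of each other, for 287 (2.63%) they lay 3 to 9 h apart and for 33 (0.303%) at least 9 h apart, which is called opposite here. A different rhythm was found for 260 of the 676 (38.5%), 43 of them with common peaks, 184 with peaks 3 to 9 h apart and all 33 opposite genes. Called in both tissues with peaks so far apart, the opposite genes could hardly fail this test. A rhythm was called specific to a tissue when it was called there, had an unadjusted p of at least 0.05 in the other tissue, and differed between the tissues at an adjusted p under 0.05. That held for 902 genes in liver (8.27%) and 172 in muscle (1.58%). The counts depended on the test: DESeq2 called 1630 genes rhythmic in both, and a fit with ZT as a factor called 79. Leaving out 1 library gave 397 (without muscle ZT22 replicate 2) to 896 genes (without liver ZT6 replicate 1), and of the 356 genes with common peaks, 219 to 341 were placed in that class again.

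Most clock genes were rhythmic in both tissues at near phases, with the larger amplitude in liver. Of 19 genes in 4 lists (activators, repressors, REV-ERB and ROR receptors, and PAR bZIP factors with Nfil3), 19 were rhythmic in liver and 16 in muscle, against 33.1% and 14.3% of all genes. Peaks lay within 3 h of each other in 15, and 10 had a different rhythm, against 18.7% of all genes. Fitted amplitude, the rise of the cosine above its mean in log2 CPM, was larger in liver in 16 of 19, against 7513 of all 10904 genes. Its medians were 1.92 in liver and 0.98 in muscle, against 0.23 and 0.14 over all genes. The lists hold genes known for their rhythm in many tissues, so these counts describe the genes and are no independent evidence.

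**Figure D1:**
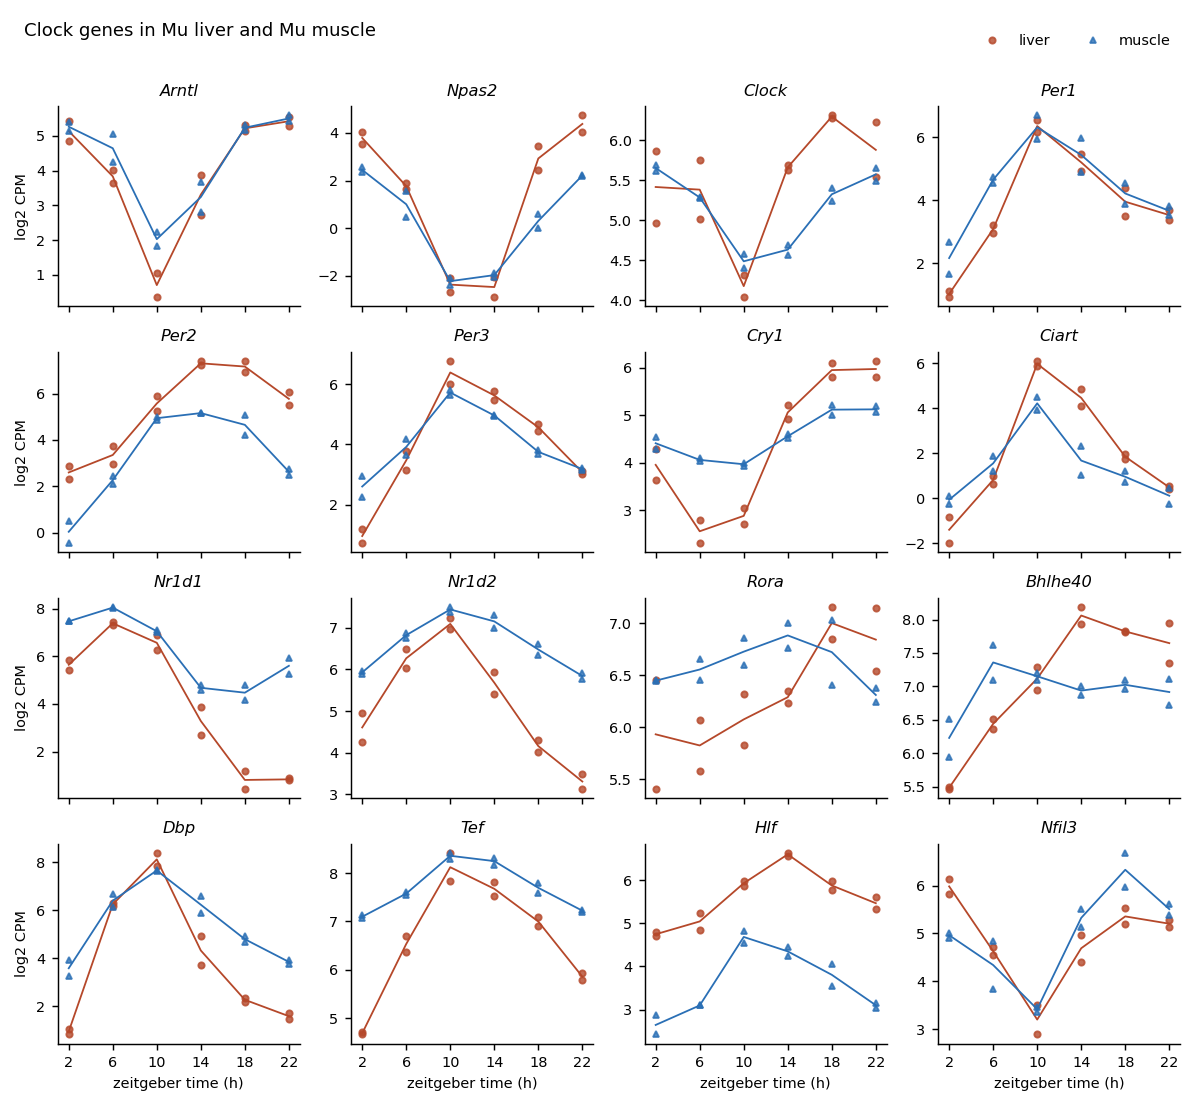
Log2 CPM of 16 clock genes against zeitgeber time in hours, with 1 point per library (circles for liver, triangles for muscle, 2 per time and tissue) and lines through the means of each time. Arntl and Per1 run together in both tissues, Nr1d1, Cry1 and Dbp swing further in liver, and Bhlhe40 changes mainly in liver.

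Of the activators, Arntl had nearly the same course in both tissues. In liver it measured 46.7 and 39.3 CPM at ZT 22 and 2.08 and 1.28 CPM at ZT 10, and in muscle 48.1 and 42.7 CPM at ZT 22 and 3.57 and 4.68 CPM at ZT 10, so that the low points did not overlap with the high points in either tissue. Its peaks were fitted at ZT 22.2 and 22.97, a difference of -0.737 h (95% interval -2.60 to 1.13 h), and no different rhythm was found (adjusted p = 0.539). Npas2, the partner of ARNTL alongside CLOCK, peaked at ZT 23.5 in liver and 0.357 in muscle (difference -0.841 h, interval -1.82 to 0.141 h), with amplitudes of 3.70 ± 0.37 (SE) and 2.47 ± 0.18. Clock had the widest gap of the shared clock genes: its peak came at ZT 20.3 in liver and 23.8 in muscle, a difference of -3.60 h (interval -6.09 to -1.10 h). The test of a different rhythm missed the threshold for Clock (adjusted p = 0.105), and its rhythm in liver was lost in 8 of 24 fits that left out 1 library (adjusted p up to 0.101, without liver ZT18 replicate 2). Each tissue was fitted apart, so only the 12 of these fits that left out a liver library could change a call in liver. The same held for muscle libraries and calls in muscle, here and below.

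Of the 8 repressors, 6 had a later fitted peak in liver than in muscle, but only Per2 had an interval wholly above 0. The 6 include Bhlhe40, whose rhythm was not called in muscle. Per2 measured 168 and 148 CPM in liver and 35.5 and 35.8 CPM in muscle at ZT 14, and fell at ZT 2 to 4.94 and 7.44 CPM in liver and to 0.738 and 1.44 CPM in muscle. Its amplitudes were near each other, 2.46 ± 0.21 in liver and 2.47 ± 0.27 in muscle, and the fitted peak came 1.84 h later in liver (interval 0.732 to 2.95 h; adjusted p for a different rhythm 0.0175). Per1 (1.05 h, interval -1.00 to 3.10 h) and Per3 (1.19 h, interval -0.192 to 2.57 h) had intervals that include 0. Ciart, a repressor of CLOCK and ARNTL, peaked 1.76 h later in liver with an interval that also includes 0 (-0.128 to 3.64 h).

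Cry1 showed a common phase with unequal depth. In liver it measured 70.6 and 56.2 CPM at ZT 22 against 4.94 and 6.96 CPM at ZT 6, and in muscle 36.5 and 33.3 CPM at ZT 22 against 15.9 and 15.3 CPM at ZT 10. The fitted peak-to-trough ratio was 14.3 in liver and 2.43 in muscle, and the rhythms differed (adjusted p = 3.66e-05) although the peaks, at ZT 19.2 and 19.8, lay -0.643 h apart (interval -1.42 to 0.138 h). Cry2 had small amplitudes in both tissues, 0.42 ± 0.11 and 0.39 ± 0.09, and its liver rhythm was lost in 3 of the 24 fits (adjusted p up to 0.0603, without liver ZT6 replicate 2). The paralogs Bhlhe40 and Bhlhe41, which bind E-boxes and repress, split: Bhlhe41 peaked at ZT 10.0 and 10.4 with amplitudes of 2.00 ± 0.27 and 0.70 ± 0.14, and Bhlhe40 was rhythmic in liver, with 292 and 244 CPM at ZT 14 against 45.1 and 44.3 CPM at ZT 2, and was not called in muscle (adjusted p = 0.401; different rhythm, adjusted p = 0.0124). Bhlhe41 lay near the expression threshold in liver, between 0.173 CPM at ZT 22 and 7.08 CPM at ZT 10.

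Both REV-ERB receptors were rhythmic in both tissues and had a different rhythm between them. Nr1d1 measured 160 and 177 CPM in liver and 261 and 271 CPM in muscle at ZT 6, and its low points were 1.83 and 1.72 CPM in liver at ZT 22 and 17.99 and 27.5 CPM in muscle at ZT 18. Its fitted peak-to-trough ratio was 162 in liver and 14.7 in muscle, and its peak came later in liver, at ZT 7.02 against 5.23 (difference 1.79 h, interval 1.07 to 2.51 h; adjusted p = 0.000129). Its paralog Nr1d2 was displaced the other way: the peak came earlier in liver, at ZT 9.37 against 11.2 (difference -1.81 h, interval -2.52 to -1.10 h; adjusted p = 5.01e-05). The interval between the Nr1d1 and Nr1d2 peaks was thus shorter in liver than in muscle, a contrast noticed after the values were seen and not tested as such. Nr1d1 overlaps Thra on the other strand, and whether the counting used strand is not given in the sources used here.

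Rora, a ROR receptor that activates through the same elements, was called in liver (amplitude 0.59 ± 0.16) and had an adjusted p of 0.0739 in muscle. Its different rhythm (adjusted p = 0.0271) was lost in 5 of 24 fits (up to 0.0613, without liver ZT22 replicate 1).

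The PAR bZIP factors are outputs of the E-box arm and carry the rhythm to D-box genes. Dbp measured 230 and 339 CPM in liver and 206 and 199 CPM in muscle at ZT 10, and at ZT 2 it measured 1.77 and 2.10 CPM in liver and 9.57 and 14.996 CPM in muscle. High points were alike and low points were deeper in liver, and the peaks lay -0.773 h apart (interval -2.15 to 0.603 h). The rhythms of Dbp differed at an adjusted p of 0.0280, a call lost in 2 of 24 fits (up to 0.0571, without liver ZT10 replicate 2). Tef peaked at ZT 12.7 and 12.2 with amplitudes of 1.54 ± 0.18 in liver and 0.66 ± 0.04 in muscle (different rhythm, adjusted p = 0.00698). Hlf, Nfil3 and Per2 were the 3 clock genes whose amplitude was not larger in liver. Hlf had 0.84 ± 0.09 in liver and 0.98 ± 0.13 in muscle, and it peaked 1.48 h later in liver (interval 0.155 to 2.80 h). Nfil3, which represses D-box genes, peaked at ZT 22.6 in liver and 19.7 in muscle (difference 2.95 h, interval 0.520 to 5.39 h). Its liver rhythm was lost without liver ZT10 replicate 2 (adjusted p = 0.0518).

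**Figure D2:**
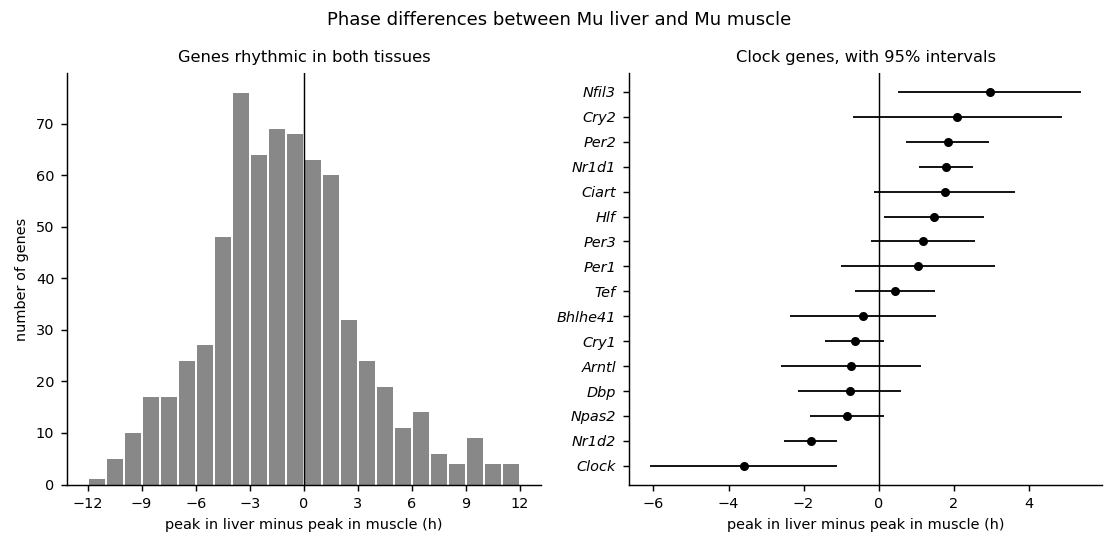
Left, number of genes rhythmic in both tissues (676) by the difference of fitted peaks, liver minus muscle, in bins of 1 h. Right, the same difference for the 16 clock genes rhythmic in both, with 95% intervals: Nr1d1, Per2, Hlf and Nfil3 lie above 0, and Clock and Nr1d2 below 0.

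The clock loop is known to work through short promoter elements, and 4 promoters that hold matches to them are shown. RefSeq promoters (build GRCm38.p6, 250 bases before to 50 after an annotated start) were found for 15 of the 16 clock genes rhythmic in both, with 20 promoters in all; none was found for Per2. They were searched on both strands for the E-box CACGTG, the D-box TTANGTAA and the REV-ERB and ROR element TAGGTCA, which do not overlap with each other. Of all 32851 promoters in that set, 7.15%, 2.32% and 2.61% hold these letters. E-boxes were found in Bhlhe41, Ciart, Cry1, Per1 and Tef, D-boxes in Per3, and the REV-ERB and ROR element in Arntl and Nfil3. No match to any of the 3 was found in the windows of the other 7 genes, Clock, Npas2, Cry2, Nr1d1, Nr1d2, Dbp and Hlf. Capitals mark the matches below, and each sequence runs 5′ to 3′ in the direction of the gene.
Ciart (chr3:95882179-95882478, minus strand): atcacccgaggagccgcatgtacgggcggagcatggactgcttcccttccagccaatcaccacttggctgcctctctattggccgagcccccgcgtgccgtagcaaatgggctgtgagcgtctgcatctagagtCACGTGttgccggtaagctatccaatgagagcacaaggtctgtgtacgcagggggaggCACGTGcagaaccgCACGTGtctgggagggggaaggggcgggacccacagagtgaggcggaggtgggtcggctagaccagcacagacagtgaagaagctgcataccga
Per3 (chr4:151044616-151044915, minus strand): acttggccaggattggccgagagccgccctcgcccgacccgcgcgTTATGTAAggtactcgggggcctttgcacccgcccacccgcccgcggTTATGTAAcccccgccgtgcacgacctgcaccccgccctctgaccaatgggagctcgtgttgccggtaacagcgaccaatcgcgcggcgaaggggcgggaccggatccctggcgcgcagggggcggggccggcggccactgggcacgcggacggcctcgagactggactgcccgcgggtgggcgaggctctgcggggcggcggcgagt
Arntl (chr7:113207261-113207560, plus strand): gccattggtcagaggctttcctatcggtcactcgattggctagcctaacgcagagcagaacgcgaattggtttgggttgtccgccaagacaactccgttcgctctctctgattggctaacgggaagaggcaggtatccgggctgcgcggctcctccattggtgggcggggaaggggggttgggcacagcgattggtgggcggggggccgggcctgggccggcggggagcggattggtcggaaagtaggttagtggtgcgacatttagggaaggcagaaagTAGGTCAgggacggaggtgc
Nfil3 (chr13:52980990-52981289, minus strand): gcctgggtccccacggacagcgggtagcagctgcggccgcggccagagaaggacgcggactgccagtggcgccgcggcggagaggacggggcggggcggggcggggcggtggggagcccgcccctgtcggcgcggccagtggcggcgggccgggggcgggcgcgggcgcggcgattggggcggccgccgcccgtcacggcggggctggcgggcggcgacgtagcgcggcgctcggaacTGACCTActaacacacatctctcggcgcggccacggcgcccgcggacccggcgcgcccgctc

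Ciart has 3 E-boxes, which begin at -116, -58 and -44 bases from the start, and peaked at ZT 12.5 in liver and 10.7 in muscle. Per3 has D-boxes beginning at -205 and -158 and peaked at ZT 13.0 and 11.8. The element of Arntl begins 30 bases after the start of its second RefSeq promoter, and that of Nfil3, on the reverse strand, at -12. Arntl and Nfil3 peaked at ZT 22.2 and 22.6 in liver, and at ZT 22.97 and 19.7 in muscle. A match of letters is a description of the window and shows no binding in these samples.

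Over all 676 genes rhythmic in both tissues more genes peaked earlier in liver than later, and the median difference of the clock lists had the other sign. The median difference was -1.34 h with a jackknife SE over libraries of 1.18 h, and 426 genes peaked earlier and 250 later in liver. Intervals lay wholly below 0 in 269 genes (39.8%) and wholly above 0 in 118 (17.5%). For the 19 clock genes the median was 1.05 h with a jackknife SE of 0.868 h, and 11 of 19 peaked later in liver. Not all 19 were called in muscle, and the 11 include Bhlhe40 and Rora, which were not. For the 16 clock genes called in both tissues the median was 0.744 h. Leaving out 1 library moved the median over genes rhythmic in both to between -1.80 and -0.727 h. That over the 19 clock genes moved to between 0.704 and 1.44 h. For genes rhythmic in both, the median was -0.403 h at an adjusted p under 0.01 and -0.643 h with ZT as a factor. It was -0.845 h with no filter on low counts and -0.871 h in the joint fit of both tissues. The threshold, ZT as a factor and the joint fit left the fitted peaks as they were and changed only which genes were called. The difference between the median of all genes rhythmic in both and that of the clock genes was not tested. The difference varied with the time of the peak: of the 159 genes that peaked between ZT 16 and 20 in muscle, 74.8% had liver peaks within 3 h (median difference -0.920 h), and of the 102 that peaked between ZT 8 and 12 in muscle, 26.5% did (median -3.44 h). Liver peaks of the 676 genes were uneven too, with 35.5% from ZT 16 to 20 and 6.21% from ZT 8 to 12. The share within 3 h that this unevenness alone would give was not tested.

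**Figure D3:**
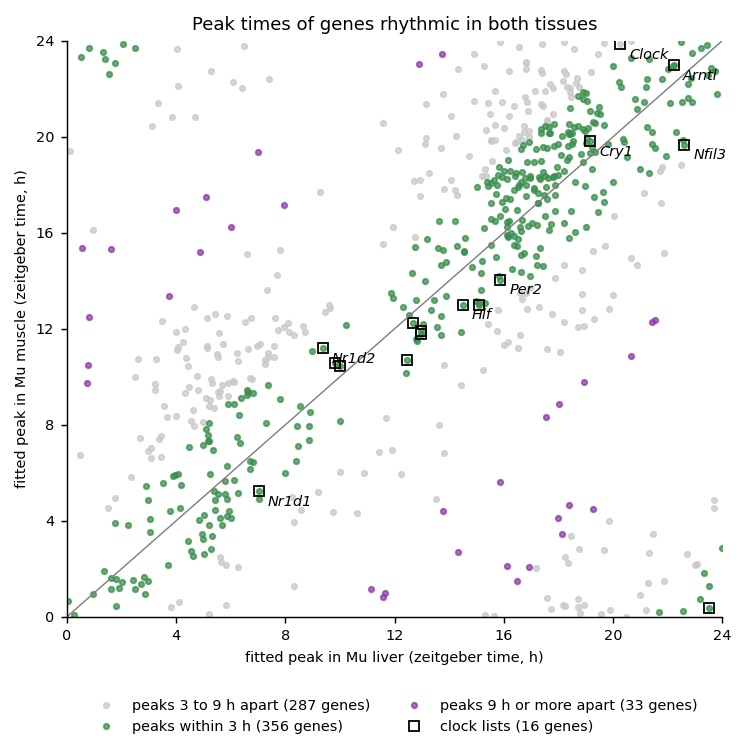
Fitted peak in liver against fitted peak in muscle, both in zeitgeber hours, for the 676 genes rhythmic in both tissues, coloured by the gap between the peaks, with the 16 clock genes as squares. The line marks equal times. Green points (within 3 h, 356 genes) are densest near ZT 16 to 20, and many grey points (3 to 9 h, 287 genes) peak between ZT 4 and 8 in liver and later in muscle.

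Peak times themselves were distributed unevenly, and differently in the tissues. In liver, 30.8% of the rhythmic genes peaked from ZT 4 to 8 and 29.4% from ZT 16 to 20. In muscle the fullest bins were ZT 16 to 20, with 23.3%, and ZT 20 to 24, with 21.1%. The genes with common peaks gathered in 1 bin: 39.6% of the 356 peaked from ZT 16 to 20 in liver and 33.4% in muscle. The liver-specific genes filled the same bins as all liver rhythms, with 33.8% from ZT 4 to 8 and 27.8% from ZT 16 to 20. Across the same hours the share of liver counts in 75 ribosomal protein genes was 1.325 to 1.40% at ZT 2 to 10 and 0.921 to 1.01% at ZT 14 to 22, and in muscle it was 1.01 to 1.08% at all times (means of 2 libraries). Single liver libraries spread more widely, with 1.73 and 1.07% at ZT 2 and 1.16 and 1.49% at ZT 6, against at most 1.04% at ZT 14 to 22. The part of this share in the peak times was not tested.

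**Figure D4:**
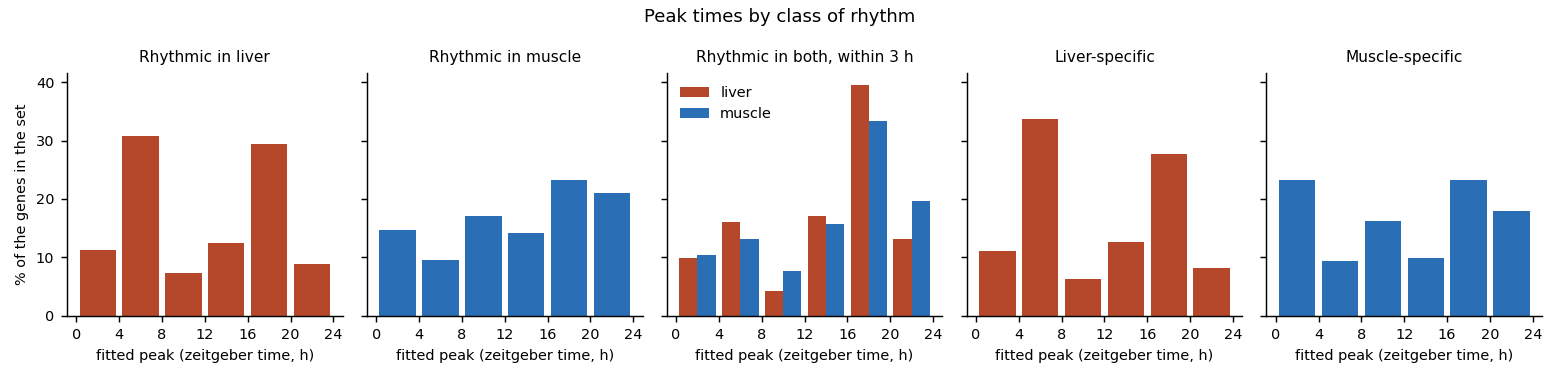
Percent of the genes of each set by the 4 h bin of their fitted peak, with red bars for peaks in liver and blue bars for peaks in muscle. Liver rhythms, and liver-specific ones, fill the bins of ZT 4 to 8 and 16 to 20; genes with common peaks fill ZT 16 to 20 in both tissues.

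Amplitudes were larger in liver in 487 of the 676 genes and in muscle in 189. Over all 10904 genes the amplitude was larger in liver in 7513, so this leaning was not particular to genes rhythmic in both. The median log2 ratio of amplitudes was 0.43 (jackknife SE 0.25), beside 0.65 over all 10904 genes. When both tissues were tested in a joint fit, with a common estimate of the spread, 606 genes were called in both. Their median ratio was -0.01, from the same separately fitted amplitudes, so the set of genes changed and the amplitudes did not. The 5 most unequal genes in each direction were taken among those with a mean of at least 10 CPM in both tissues. Ppard, a fatty acid receptor, had 80.4 and 83.4 CPM in liver at ZT 22 against 10.1 and 11.2 CPM at ZT 10, and in muscle 48.2 and 43.6 CPM at ZT 18 against 29.9 and 28.5 CPM at ZT 10, a log2 amplitude ratio of 2.61 (different rhythm, adjusted p = 4.88e-05). Fbxo21, Desi2, Ncoa4 and St5 followed, with ratios of 2.18 to 2.34. The muscle rhythms of these 4 were lost in 8, 7, 9 and 5 of 24 fits that left out 1 library, with adjusted p up to 0.0841 and 0.0732 (Fbxo21 and Desi2, without muscle ZT18 replicate 1), 0.0954 (Ncoa4, without muscle ZT10 replicate 2) and 0.0831 (St5, without muscle ZT14 replicate 1).

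In the other direction, Pfkfb3, an enzyme that raises the main activator of glycolysis, had the deeper rhythm in muscle. It measured 479 and 570 CPM in muscle at ZT 6 and 36.5 and 28.6 CPM at ZT 14, with no overlap, while in liver the highest time, ZT 14, gave 12.2 and 21.8 CPM and the lowest, ZT 2, gave 5.58 and 8.42 CPM. Its peak came 8.61 h later in liver (interval 5.97 to 11.3 h; adjusted p = 9.08e-05), and its liver rhythm was lost in 8 of 24 fits (up to 0.121, without liver ZT14 replicate 2). Arrdc2, which had a log2 amplitude ratio of -2.11, peaked at ZT 12.8 and 11.6, and Acvr1b, a receptor of activins, and Cep85l had ratios of -1.71 and -1.46. The liver rhythms of these 3 genes were lost in 5, 8 and 9 of 24 fits (adjusted p up to 0.0759 without liver ZT14 replicate 1, 0.131 without liver ZT10 replicate 2 and 0.120 without liver ZT6 replicate 2).

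Outside the clock lists, the 10 genes with common peaks and the strongest rhythms in both tissues were Tsc22d3, Rev1, Maco1, Pim3, Naa60, Rnf144a, Tns2, Baz1b, Zfp36l1 and Usp2. All 10 kept this class in all 24 fits that left out 1 library. Of the 5 among them with a different rhythm, Pim3 lost that call in 11 of 24 fits (adjusted p up to 0.0775) and Naa60 in 1 (0.0522), both highest without liver ZT14 replicate 2. Tsc22d3 (GILZ), a target of glucocorticoids, measured 151 and 165 CPM in liver and 250 and 284 CPM in muscle at ZT 14, and its low points were 44.8 and 38.4 CPM in liver at ZT 6 and 100.5 and 81.9 CPM in muscle at ZT 2. Maco1 had the same peak, ZT 14.8 and 14.6, and nearly the same amplitude, 0.46 ± 0.05 and 0.49 ± 0.04, in both tissues (difference 0.260 h, interval -0.884 to 1.40 h). Usp2, a deubiquitinase known as a clock output, rose from 1.39 and 1.67 CPM at ZT 6 to 68.1 and 69.1 CPM at ZT 10 in liver. In muscle it measured 66.4 and 68.1 CPM at ZT 2 and 298 and 328 CPM at ZT 14, and its peaks were at ZT 13.5 and 13.2. Zfp36l1, which promotes mRNA decay, peaked at ZT 19.3 and 19.4. The earliest and latest of these genes differed widely in time, with Rnf144a at ZT 1.34 and 1.92, Pim3 at ZT 10.0 and 8.17 and Naa60 at ZT 15.5 and 16.6, and Baz1b had the widest gap of the 10, at -2.53 h (interval -3.79 to -1.27 h).

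Opposite rhythms were rare, 33 of 676. The 8 in which the test of a different rhythm gave the lowest p were Osgin1, Slc30a1, Spcs2, Slc12a7, Pter, Ankrd27, 2310022B05Rik and Enpep. Osgin1, an oxidative stress response gene, measured 599 and 436 CPM in liver at ZT 2 and 119 and 114 CPM at ZT 10, and in muscle 24.9 and 29.6 CPM at ZT 14 and 6.61 and 6.52 CPM at ZT 6. The fitted peaks of Osgin1 were at ZT 0.568 in liver and 15.4 in muscle, 9.20 h apart (interval 7.46 to 10.9 h, different rhythm at adjusted p = 5.73e-05). Slc30a1, which exports zinc from cells, peaked at ZT 17.5 in liver, with 79.6 and 101 CPM at ZT 18 against 41.0 and 40.7 CPM at ZT 6. In muscle Slc30a1 peaked at ZT 8.34, with 24.2 and 20.99 CPM at ZT 10 against 12.4 and 9.60 CPM at ZT 18 (adjusted p = 6.44e-05). Spcs2, a subunit of the signal peptidase of the endoplasmic reticulum, came closest to antiphase, with peaks at ZT 0.795 and 12.5.

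The classes divide a continuous range. Just inside 9 h were Pdcl3 (-9.016 h) and Hpgd (-9.025 h), and just outside it Tbc1d20 (8.998 h); at the limit of 3 h, Far1 (-2.996 h) lay inside and Arhgap21 (-3.01 h) outside. Of the 8 named genes, 6 had 95% intervals that reached below 9 h, the exceptions being Slc12a7 (9.36 to 13.9 h) and Spcs2 (-13.8 to -9.66 h). The 8 genes kept the opposite class in 12 to 20 of the 24 fits that left out 1 library. Any of the 24 could change a class, but only the 12 without a library of a tissue could change that tissue's own call. The muscle rhythm was lost in 9 of these fits for Spcs2 and in 10 for Slc12a7 (adjusted p up to 0.110 and 0.0965, without muscle ZT14 replicate 2), in 6 for Pter (up to 0.0774, without muscle ZT22 replicate 2) and in 2 for Slc30a1 (up to 0.0530, without muscle ZT10 replicate 2). The liver rhythm was lost in 6 fits for Ankrd27 (up to 0.0839, without liver ZT10 replicate 2) and in 6 for 2310022B05Rik (up to 0.0759, without liver ZT14 replicate 2). With the fat cell marker score as a covariate in muscle, Slc12a7 and Pter had adjusted p-values of 0.149 and 0.0551 in muscle. Osgin1 kept all 3 of its calls in every one of these fits.

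**Figure D5:**
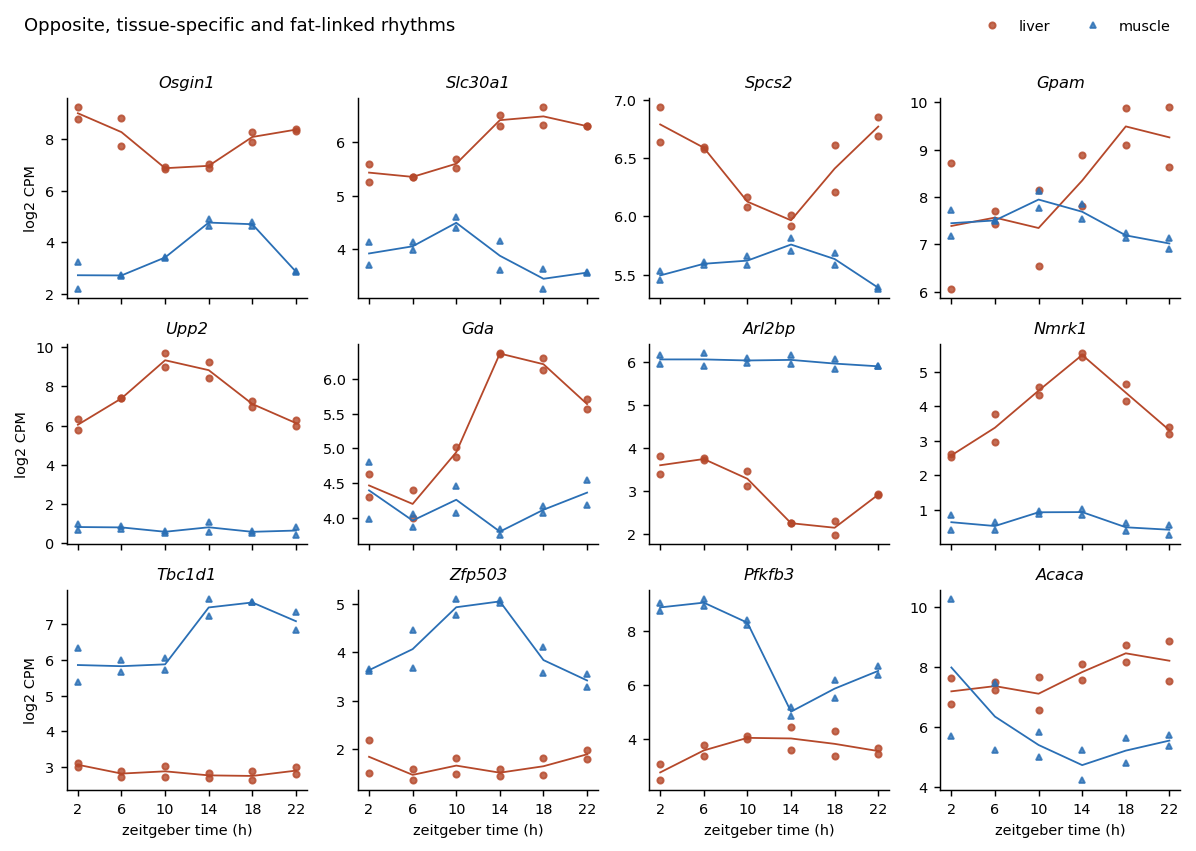
Log2 CPM of 12 genes against zeitgeber time in hours, 1 point per library (circles for liver, triangles for muscle) with lines through the means. Osgin1, Slc30a1, Spcs2 and Gpam peak at opposed times, Upp2, Gda, Arl2bp and Nmrk1 change in liver, Tbc1d1, Zfp503 and Pfkfb3 change in muscle, and Acaca has 1 muscle library at ZT 2 far above the rest.

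Of the liver-specific rhythms, those described here, among the 8 with the smallest p-values for a difference, were Upp2, Arl2bp, Gda, Ptp4a1, Clpx, Lgalsl and Nmrk1. Upp2, a uridine phosphorylase, measured 504 and 826 CPM in liver at ZT 10 and 54.5 and 79.4 CPM at ZT 2, and in muscle it lay between 1.35 and 2.06 CPM at all times (amplitudes 1.74 ± 0.16 and 0.07 ± 0.08; adjusted p for the difference 3.66e-05). Gda, guanine deaminase, peaked at ZT 16.8 in liver, with 82.4 and 82.0 CPM at ZT 14 against 21.3 and 16.01 CPM at ZT 6. Nmrk1, a nicotinamide riboside kinase of NAD synthesis, peaked at ZT 13.9, with 46.3 and 43.3 CPM at ZT 14 against 5.83 and 6.13 CPM at ZT 2. Clpx, part of the mitochondrial ClpXP protease, peaked at ZT 23.6, with 441 and 438 CPM at ZT 2 against 85.1 and 69.5 CPM at ZT 10. In muscle the amplitudes of these 7 genes were 0.07 to 0.23, and their unadjusted p-values 0.0504 (Clpx) to 0.803 (Upp2). Clpx and Lgalsl (0.0505) thus lay just inside the limit of 0.05, and kept the class in 20 of 24 fits each.

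Of the muscle-specific rhythms, the 8 named by the same rule were Cecr2, Tbc1d1, Zfp503, Pxylp1, Dusp5, Carm1, Usp54 and Klhl5. Tbc1d1 encodes a Rab GTPase activating protein that holds back glucose transporter traffic in muscle. It measured 195 and 195 CPM in muscle at ZT 18 and 64.1 and 50.2 CPM at ZT 6, and in liver it lay between 6.18 and 8.72 CPM at all times (amplitudes 1.07 ± 0.15 in muscle and 0.11 ± 0.06 in liver; adjusted p for the difference 0.0004). Zfp503, a zinc finger repressor, measured 33.7 and 32.5 CPM in muscle at ZT 14 and 9.68 and 11.8 CPM at ZT 22. Carm1, an arginine methyltransferase that coactivates muscle genes, peaked at ZT 13.6 in muscle, with 113 and 127 CPM at ZT 14 against 66.2 and 62.6 CPM at ZT 2. Dusp5, a phosphatase of ERK, had low levels, at most 4.75 CPM in muscle. Tbc1d1, Zfp503, Pxylp1, Carm1 and Klhl5 kept the class in 24 of 24 fits, Dusp5 in 23, Usp54 in 21 and Cecr2, whose unadjusted p in liver was 0.0539, in 19.

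Among known clock-linked targets, 11 of 11 measured genes were rhythmic in liver, 9 in muscle and 9 in both, 7 of them with peaks within 3 h (33.1%, 14.3%, 6.2% and 3.26% of all genes). This list too holds genes known for their rhythm and is no independent evidence. Wee1, a cell cycle kinase, peaked at ZT 13.7 and 14.6, Lonrf3 at ZT 18.98 and 17.9, and Ppp1r3c, which targets a phosphatase to glycogen, at ZT 21.4 and 19.7. Nampt, the rate-limiting enzyme of NAD salvage, and Por, the reductase of microsomal P450 enzymes, were liver-specific, with amplitudes of 0.98 and 1.27 in liver against 0.10 and 0.23 in muscle. Leo1, of the polymerase-associated PAF complex, was rhythmic in both tissues with peaks 5.35 h apart (ZT 21.3 and 2.66). Tspan4 peaked at ZT 15.2 and 10.3, and its muscle rhythm was lost in 9 of 24 fits (adjusted p up to 0.106, without muscle ZT10 replicate 1).

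Of 19 heat shock and cold-inducible genes, 16 were rhythmic in liver, 2 in muscle and 6 had a different rhythm (33.1%, 14.3% and 18.7% of all genes). The 2 in both were the co-chaperones Dnajb1, at ZT 16.1 and 16.4, and Dnajb4, at ZT 15.8 and 18.01, whose muscle rhythms were lost in 10 and 9 of 24 fits (adjusted p up to 0.110 and 0.102, without muscle ZT18 replicate 1). Hspa8 and Hsph1 had amplitudes of 1.20 and 1.55 in liver, and 0.39 and 0.38, not called, in muscle. Cirbp, an RNA-binding protein induced by cold, peaked at ZT 5.61 in liver, away from Hspa8 at ZT 15.7 and Hsph1 at ZT 17.4 (amplitude 1.21; adjusted p in muscle 0.0829). Of 22 genes of the unfolded protein response, 15 were rhythmic in liver and 7 in muscle, both above the shares of all genes, 3 of them in both and with peaks within 3 h (Herpud1, Hyou1, Atf6). Herpud1 kept both calls in all 24 fits, and the muscle rhythms of Hyou1 and Atf6 were lost in 9 and 5 (up to 0.0877 without muscle ZT10 replicate 2, and 0.0688 without muscle ZT22 replicate 1), that of Atf6 in liver in 8 (0.133 without liver ZT18 replicate 2). Of 22 ribosome biogenesis genes, 11 were rhythmic in liver and 4 in muscle, and the amplitude was larger in liver in 22 of 22, against 7513 of 10904 genes; Nop56, Nop2 and Polr1a were rhythmic in both, with peaks within 3 h between ZT 14.6 and 17.3. Polr1a lost its liver rhythm in 4 of 24 fits (up to 0.0929, without liver ZT14 replicate 2) and its muscle rhythm in 4 (up to 0.0752, without muscle ZT14 replicate 2), and Nop56 its liver rhythm in 2 (up to 0.0716, without liver ZT14 replicate 2).

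Of 18 glucocorticoid responsive genes, 10 were rhythmic in liver, 9 in muscle and 5 in both (33.1%, 14.3% and 6.2% of all genes). Fkbp5, which binds the glucocorticoid receptor complex, measured 125 and 147 CPM in liver at ZT 14 and 13.9 and 16.4 CPM at ZT 2, and in muscle 87.6 and 107 CPM at ZT 18 and 28.3 and 21.1 CPM at ZT 10. Its peak came earlier in liver, by -3.56 h (interval -5.74 to -1.39 h; adjusted p = 0.0243, and 0.0514 without liver ZT14 replicate 2). Ddit4 (REDD1), an inhibitor of mTORC1, was displaced the other way, with peaks at ZT 18.1 in liver and 11.02 in muscle (7.05 h, interval 4.44 to 9.66 h; adjusted p = 0.00436). Per1 and Tsc22d3 are members of this list as well and had common peaks. Zbtb16, the fifth gene called in both, peaked at ZT 16.6 in liver and 17.99 in muscle; its liver level at ZT 14 rested on unequal libraries, with 11.5 and 59.7 CPM.

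Of 22 genes of fatty acid and triglyceride synthesis, 14 were rhythmic in liver, 4 in muscle and 4 in both (33.1%, 14.3% and 6.2% of all genes), 11 had a different rhythm (18.7% of all genes) and 0 had peaks within 3 h (3.26% of all genes). The 0 rests on the 4 genes called in both, which include Acaca and Acly. The muscle calls of Acaca and Acly were lost without muscle ZT2 replicate 2, the muscle library with the highest fat cell markers, as given below. Of 17 fasting and PPAR target genes, 6 were rhythmic in liver, 5 in muscle and 3 in both, 5 had a different rhythm and 1, Ppard, had peaks within 3 h. Gpam, the first enzyme of glycerolipid synthesis, was opposite: it measured 547 and 947 CPM in liver at ZT 18 and 93.8 and 283 CPM at ZT 10, and in muscle 279 and 218 CPM at ZT 10 and 121 and 140 CPM at ZT 22 (9.12 h, interval 5.95 to 12.3 h; adjusted p = 0.0138). It kept this class in 12 of 24 fits, with an adjusted p for rhythm of up to 0.0921 in liver, without liver ZT18 replicate 2, and 0.0657 in muscle, without muscle ZT22 replicate 1. Srebf1, which drives lipogenic genes, was liver-specific, with an amplitude of 0.99 in liver against 0.16 in muscle. Mlxipl (ChREBP), a carbohydrate-sensing activator of the same genes, peaked at ZT 21.001 and 0.913, and its liver rhythm was lost in 9 of 24 fits (up to 0.126, without liver ZT22 replicate 1). Cpt1a, the entry step of mitochondrial fatty acid oxidation, was rhythmic in both, with equal amplitudes (0.66 ± 0.08 and 0.65 ± 0.09) and a peak 3.96 h later in liver (ZT 10.0 against 6.05; interval 2.45 to 5.47 h; adjusted p = 0.00311), in 24 of 24 fits. Trib3, a pseudokinase induced by stress and fasting, peaked 5.31 h later in liver (interval 2.88 to 7.74 h; adjusted p = 0.00134), and its muscle rhythm was lost in 5 of 24 fits (up to 0.0907, without muscle ZT14 replicate 2).

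Fat cell markers moved with some of these muscle rhythms. Their summed level was 305 and 2423 CPM at ZT 2 and 212 and 134 CPM at ZT 14 in muscle, with a fitted peak at ZT 3.14, and 1 of the 7 markers (Ucp1) was called rhythmic. Acaca and Acly, which make malonyl-CoA and cytosolic acetyl-CoA, peaked at ZT 2.83 and 2.78 in muscle: Acaca measured 52.5 and 1228 CPM at ZT 2, and Acly 50.1 and 1493 CPM, in the same 2 libraries, and their adjusted p-values in muscle rose to 0.133 and 0.227 without muscle ZT2 replicate 2. With the fat cell score as a covariate in muscle, an alternative chosen after seeing the data, both p-values were 0.819, and that of Pck1, a gluconeogenic enzyme with muscle values of 14.03 and 233 CPM at ZT 2, was 0.159. Angptl4, an inhibitor of lipoprotein lipase, measured 66.3 and 79.5 CPM in muscle at ZT 2, level in both libraries, against 1.53 and 0.529 CPM at ZT 14, and stayed called in muscle with the score. With it, 549 genes were rhythmic in both tissues and 298 had common peaks, of which 265 were among the 356, and 1354 genes had a different rhythm in place of 2043. Peaks were fitted without the score, which entered the tests only, so it changed the calls and not the peak times.

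Of 20 sterol genes 7 were rhythmic in liver, 5 in muscle and 2 in both, 1 of them with common peaks (33.1%, 14.3%, 6.2% and 3.26% of all genes). Srebf2, the main activator of sterol genes, peaked at ZT 21.3 and 23.2, and its liver rhythm was lost in 7 of 24 fits (up to 0.0799, without liver ZT22 replicate 1). Insig2, which retains sterol sensors, was liver-specific (amplitude 1.18 against 0.05). Of 17 insulin and feeding responsive genes 9 were rhythmic in liver, 5 in muscle and 4 in both, 2 of them with common peaks. Foxo3, a regulator of growth and atrophy, had common peaks, at ZT 13.6 and 15.3. The remaining lists, of autophagy, of amino acid and one-carbon metabolism, and of DNA damage genes, had 1, 0 and 1 genes rhythmic in both of 16, 16 and 12 measured (6.2% of all genes were). The autophagy gene was Map1lc3b, which encodes an LC3 protein of the autophagosome, with peaks at ZT 7.59 and 11.3 (different rhythm, adjusted p = 0.0217) and a muscle rhythm lost in 8 of 24 fits (up to 0.0983, without muscle ZT22 replicate 2), and the DNA damage gene was Wee1, given above.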

How the data were processed

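RNA-seq of Mu liver and Mu muscle was deposited as raw counts per Ensembl gene, 1 column per library, in a table for liver and another for the remaining tissues. The authors' notes name STAR and the builds GRCm38/mm10 and GRCh38/hg38/hg19 with no role, per the submitters' processing notes; the counting program, annotation, strand setting and row filter are not given in the sources used here. Mouse genes numbered 19689 and 20415 in the tables, of which 19615 and 20329 matched a symbol, and 74 columns of other samples were not used.

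Counts were scaled by TMM within each tissue and kept at a mean of at least 1 CPM. A cosine of 24 h was tested with edgeR 4.0.16 (quasi-likelihood F tests, Benjamini-Hochberg adjusted p) in R 4.3.3, in each tissue and, for different rhythms, over all 24 libraries. Peaks, amplitudes and SEs came from least squares on log2 CPM (prior count 2), and 95% intervals of phase differences from their SE with 18 degrees of freedom, taking the tissues as independent. DESeq2 1.42.0 and limma 3.58.1 were alternatives, with other scalings, filters, thresholds, phase windows, depth, a replicate block and each library left out. The rhythm call of a tissue could change only in the 12 fits without a library of that tissue. Tissues were processed in separate tables, so mean levels were not compared by test. Whether equal replicate numbers mark the same mouse was not settled. Deviations of equal numbers in liver and muscle correlated weakly, at 0.0237 to 0.160 over the 6 times, with 2 above 0.1. Weak correlations between tissues cannot exclude the same mouse.

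Named genes were all clock list members, the 10 genes with common peaks and the smallest larger p, the 8 opposite, 8 liver-specific and 8 muscle-specific genes with the smallest p for a difference, the 5 most unequal amplitudes in each direction, and members of other lists rhythmic in both. Some items that this rule names are not reported here. Other genes named were chosen after their values were seen. The members and lists were chosen with earlier results of these data known. Counts were simulated for 10856 genes, of which 10656 had no rhythm. Of genes with a common rhythm, 40% at amplitude 0.5 and 92% at amplitude 1 were placed in their class (25 genes each). For opposite rhythms the shares were 52% and 92%, for liver-specific 32% and 72% and for muscle-specific 12% and 84% (25 genes each).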

Additional observations from a re-analysis of the deposited data

Results flagged for a closer look

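The rhythm in liver differed from the rhythm in muscle, by the interaction of tissue and time, for the genes below; the value beside each is the adjusted p of that test (edgeR quasi-likelihood F test over 10904 genes), and 18.7% of all genes passed it.

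Clock genes with a different rhythm included Cry1 (3.66e-05), Nr1d2 (5.01e-05), Nr1d1 (0.000129), Bhlhe41 (0.00265), Tef (0.00698), Bhlhe40 (0.0124), Per2 (0.0175), Rora (0.0271) and Dbp (0.0280). In Cry1, Tef, Bhlhe41 and Dbp the peaks lay within 1 h and the amplitude was larger in liver, and in Per2 the peaks differed while the amplitudes were 2.46 and 2.47.

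Opposite genes were Osgin1 (5.73e-05), Slc30a1 (6.44e-05), Spcs2 (0.000129), Slc12a7 (0.000321), Pter (0.000578), Ankrd27 (0.000594), 2310022B05Rik (0.000619), Enpep (0.000718) and Gpam (0.0138). Liver-specific genes included Upp2 (3.66e-05), Arl2bp (5.01e-05), Gda (6.44e-05), Ptp4a1 (0.000109), Clpx (0.000129), Lgalsl (0.000129) and Nmrk1 (0.000129), besides Bhlhe40. Muscle-specific genes were Cecr2 (0.000400), Tbc1d1 (0.000400), Zfp503 (0.000517), Pxylp1 (0.000547), Dusp5 (0.000775), Carm1 (0.00105), Usp54 (0.00288) and Klhl5 (0.00308). The liver-specific and muscle-specific classes required this test to pass, so passing it is no further result for their genes.

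Genes rhythmic in both tissues with the larger amplitude in liver were Ppard (4.88e-05), Fbxo21 (0.000129), Desi2 (0.00375), Ncoa4 (0.0199) and St5 (0.00303), and with the larger amplitude in muscle Pfkfb3 (9.08e-05), Angptl4 (0.00242), Arrdc2 (0.00303), Acvr1b (0.0138) and Cep85l (0.00560). Genes with common peaks outside the clock lists were Usp2 (0.00828), Baz1b (0.00903), Tns2 (0.0201), Naa60 (0.0203) and Pim3 (0.0398). Members of other lists were Trib3 (0.00134), Cpt1a (0.00311), Leo1 (0.00415), Ddit4 (0.00436), Acaca (0.0193), Map1lc3b (0.0217), Fkbp5 (0.0243) and Acly (0.0337).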

How the results depend on the processing

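DESeq2 called 3108 genes in muscle, 1630 in both, 758 with common peaks, 104 opposite and 325 muscle-specific. With ZT as a factor the counts were 812 in liver, 340 in muscle, 79 in both, 479 with a different rhythm, 54 with common peaks, 2 opposite, 203 liver-specific and 42 muscle-specific. At an adjusted p under 0.01 they were 1035, 340, 79, 535, 56, 1, 184 and 23 in the same order. Opposite genes numbered 16 with no filter on low counts, 14 with windows of 2 and 10 h and 54 with windows of 4 and 8 h. The 606 genes called in both by the joint fit had a median log2 amplitude ratio of -0.013, against 0.43. Amplitudes and peaks were those of the separate fits, so only the set of genes changed. The median phase difference was -0.403 h at an adjusted p under 0.01, -0.643 h with ZT as a factor, -0.845 h with no filter and -0.871 h in the joint fit, against -1.34 h, moves smaller than its jackknife SE. The other planned settings (other size factors, a minimum of 5 CPM, limma, thinned liver counts) left every count within 1.5 times its reported value. The cause was not tested.

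Whether the numbers used for the replicate block pair the samples is not known. The block gave 2871 genes in liver, 1478 in muscle, 522 in both, 1668 with a different rhythm, 283 with common peaks, 28 opposite, 649 liver-specific and 137 muscle-specific, and medians of -1.24 h and 0.49.

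Leaving out 1 library gave 1869 (without liver ZT18 replicate 2) to 5151 genes (without liver ZT6 replicate 1) in liver, 858 (without muscle ZT22 replicate 1) to 1567 in muscle, 397 to 896 in both, 1379 to 3607 with a different rhythm, 222 to 474 with common peaks, 12 (without muscle ZT14 replicate 2) to 40 opposite, 496 to 1802 liver-specific and 96 to 202 muscle-specific. Median phase differences ranged from -1.80 to -0.727 h over genes rhythmic in both and from 0.704 to 1.44 h for the clock genes. Median log2 amplitude ratios over genes rhythmic in both ranged from 0.27 to 0.58.

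Of alternatives chosen after seeing the data, leaving out muscle ZT2 replicate 2 and ZT14 replicate 1 together gave 920 genes in muscle, 429 in both, 1334 with a different rhythm, 234 with common peaks, 19 opposite and 87 muscle-specific. The fat cell score as a covariate gave 1354 with a different rhythm and 20 opposite. Fat cell and slow fibre scores together gave 1991 in muscle, 1382 with a different rhythm and 40 opposite. These scores entered the tests only, and peaks were fitted without them. With 2 libraries per time, rhythms of amplitude 0.5 were often missed in simulated data, in which 10656 of 10856 genes had no rhythm. So few rhythmic genes make the adjusted threshold stricter than in these data. The simulated shares therefore do not measure how many rhythms were missed here. A rhythm not called is still not shown to be absent.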
